A study of Mus musculus with 21 samples.

Results

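Liver RNA of 9 control mice was set against a universal mouse reference RNA on the same arrays, to give the genes that were more or less abundant in adult liver than in a pool of cultured cell lines. The 9 arrays are those titled Control, of 21 arrays in the series, and each array was taken as 1 observation. The mice were female C57BL/6 animals, bought at 5 to 7 weeks of age and kept for a further 1 to 3 weeks. They had received 40 µl of the vehicle once through the trachea, which was saline with 10% acellular lavage fluid from lungs of mice that had no treatment. Livers were taken 28 days later from 4 of them and 1 day later from 5. The other 12 arrays hold livers of mice given 162 µg of nano-TiO2 in that vehicle. Liver RNA of 1 animal carried the red dye (Cy5) on each array, and the reference carried the green dye (Cy3). The labels describe the reference as RNA of 11 mouse cell lines, and does not name the lines. No array has the dyes swapped, so the effect of the dye on a probe and the difference between the RNAs cannot be told apart. These livers are those of vehicle-treated animals, and no liver of an untreated mouse was analysed here.

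Hepatocytes make up most of the mass of the liver. They secrete the bulk of the plasma proteins, keep blood glucose steady through gluconeogenesis and glycogen, convert ammonia to urea, make bile acids, and oxidise and conjugate drugs and steroids. In an adult liver they rarely divide. Cultured lines, in contrast, grow and divide, and lines of connective tissue make collagens and other matrix proteins. A whole liver also holds Kupffer cells (resident macrophages), sinusoidal endothelial cells, stellate cells, bile duct cells (cholangiocytes) and blood cells. In such bulk RNA, fewer cells of a type and less RNA per cell cannot be told apart.

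All values below are log2 ratios of liver over reference, so that 1 stands for a 2-fold higher and -1 for a 2-fold lower signal in liver than in reference, unless the level of 1 channel is named. Each array was normalised so that its typical gene has a ratio near 1. A ratio therefore says how a gene stood relative to the other genes of the array and not how many molecules a cell held. In liver, 13667 to 26616 of 41174 probes were well above background per control array by the scanner software's own test, and in the reference 21160 to 28193. No spot was saturated. Across the tested features, the ratios of any pair of the 9 arrays had a correlation of 0.906 to 0.985, a figure across genes, which are not independent replicates.

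A feature (a named gene, or a probe without a gene name) was called higher or lower in liver when its mean ratio exceeded 2-fold in limma's treat test, at an adjusted p under 0.05. Of 20761 features tested, 1854 were higher in liver, which is 8.93%, and 1950 were lower, which is 9.39%. Either call was reached by 3804 features, or 18.3%. Against a ratio of exactly 1, with no minimum fold, 15409 features (74.2%) passed the test. The ratio was above 0 on all 9 arrays in each of the 1854 features called higher, and below 0 on all 9 in 1949 of the 1950 called lower.

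The calls were about even in number but not in size. Among the 12765 named genes tested, 1448 were higher in liver and 1475 lower. A mean beyond 8-fold was reached by 587 named genes in the higher direction and by 164 in the lower. Beyond a log2 ratio of 5, 267 named genes were higher and 9 were lower. The plot of the 2 channels shows this asymmetry as a tall cloud of genes that were bright in liver and dim in the reference. Under scalings that leave out the loess step the balance of calls moved. With each array centred on its median alone, 922 features were higher and 3090 lower, so that 22.98% of the calls were higher in place of 48.74%. With no normalisation at all, 751 were higher and 2990 lower (20.07% higher). No called feature took the opposite call under any alternative that was run, although some keep the same ratios and could not turn a call.

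**Figure D1:**
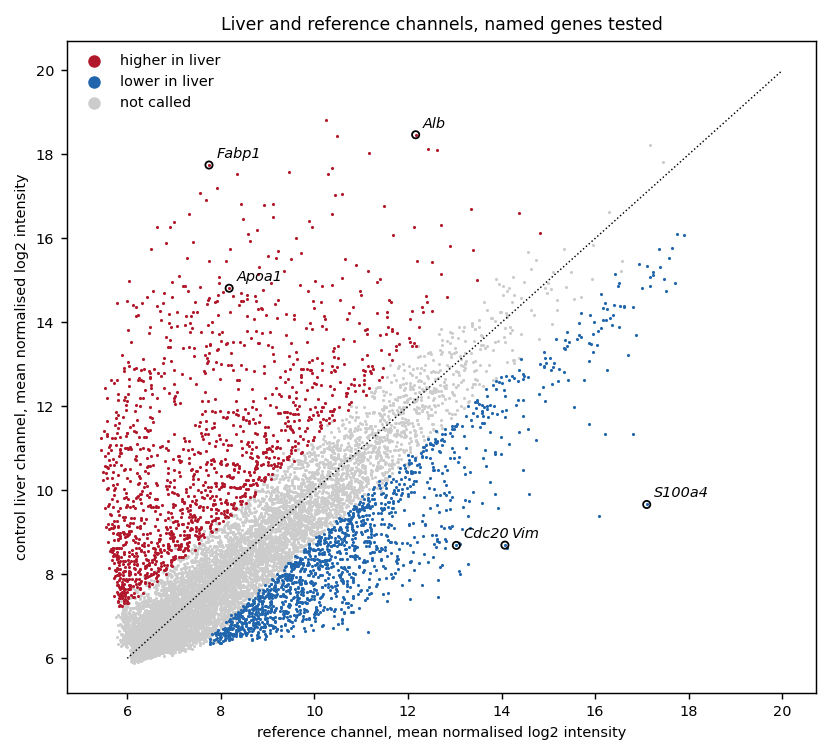
Mean normalised log2 intensity over 9 control arrays of each named gene tested, with the liver channel on the vertical and the reference channel on the horizontal axis; the dotted line marks equal channels, red points are the 1448 genes called higher in liver and blue points the 1475 called lower. Alb, Fabp1 and Apoa1 lie far above the line, and S100a4, Vim and Cdc20 far below it.

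The labelled tissue was checked against hepatocyte markers first. Alb (albumin, the main plasma protein; chromosome 5, probe A_51_P160713) had ratios of 6.00 at the lowest, 6.29 at the median and 6.66 at the highest of the 9 livers. Its level was 17.88 to 19.49 in the liver channel and 11.82 to 12.90 in the reference channel, both as normalised log2 intensity. Liver lay above reference on every array with a wide gap between the channels. The mean was 6.30 ± 0.24 (SD, n = 9), or 79.0-fold, with an adjusted p of 4.88e-14. Alb was well above background in the reference on all 9 arrays too, so the pool of cell lines gave some signal at this probe.

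Apoa1 (apolipoprotein A-I, the main protein of high-density lipoprotein; chromosome 9, probe A_51_P408082) had a lowest ratio of 5.33, a median of 6.99 and a highest of 7.14. The mean was 6.64 ± 0.70 (SD, n = 9), with an adjusted p of 6.8e-11. The 2 lowest arrays, at 5.33 and 5.51, were those of the first of 3 scan days, while the other 7 lay at 6.72 or above. The marker Cps1, the first enzyme of the urea cycle, could not be matched to a probe by name and has no value here. The 12 TiO2 livers had Alb ratios of 5.75 to 6.74 and Apoa1 ratios of 5.32 to 7.20, which overlap those of the control livers, and the difference was not tested here.

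The named genes with the largest positive means were all products of hepatocytes or enzymes of hepatocyte metabolism. Fabp1 (liver fatty acid binding protein; chromosome 6, probe A_51_P487818) led with a lowest ratio of 9.34, a median of 10.01 and a highest of 10.59, a mean of 10.00 ± 0.39 (SD, n = 9). It was followed by Akr1c6, a hydroxysteroid dehydrogenase, at 9.63 ± 0.35. Fgg, the gamma chain of fibrinogen, stood at 9.52 ± 0.52. All 3 had both channels well above background on every array. Next came Apoh (beta-2-glycoprotein I, 9.41 ± 0.39), Cyp2a5 (a cytochrome P450 that oxidises coumarin and nicotine, 9.35 ± 0.41) and Ambp (the precursor of alpha-1-microglobulin and bikunin, 9.28 ± 0.50).

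The remaining 6 of these 12 genes lay between 8.96 and 9.24. They were Serpinc1 (antithrombin), Rgn (regucalcin), Cyp3a41a (a P450 known as female-specific in mouse liver), Mup1 (a major urinary protein), Pon1 (paraoxonase, a lactonase carried on high-density lipoprotein) and Cfi (complement factor I). Adjusted p-values of all 12 were between 2.8e-14 and 9.1e-13. The probes of Cyp2a5, Cyp3a41a and Mup1 belong to families of near-identical genes, so their signal may hold that of relatives. A second probe of Serpinc1 gave 5.70, with the same direction.

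**Figure D2:**
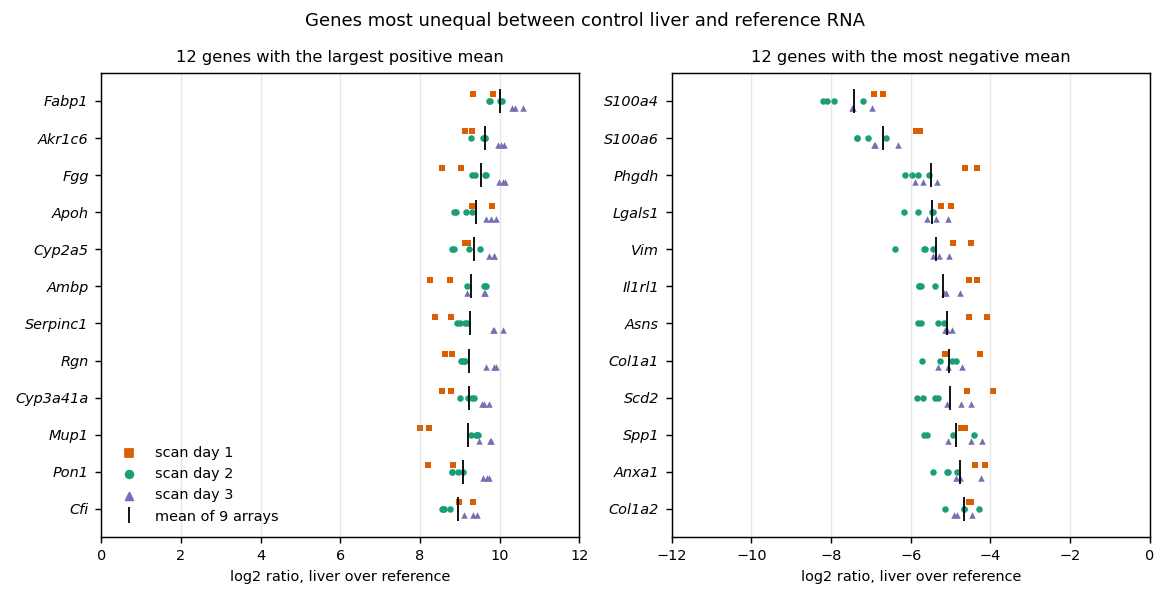
Log2 ratio of liver over reference on each of the 9 control arrays for the 12 named genes with the largest positive mean (left) and the 12 with the most negative mean (right); symbols mark the 3 scan days and black ticks the means. Every array lies on the same side for each gene, from 7.99 to 10.59 on the left and from -8.19 to -3.94 on the right.

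The promoters of both markers and of the gene with the largest ratio are shown because liver genes of this kind are known targets of hepatocyte nuclear factors. The windows end shortly after the start of the gene and are given 5′ to 3′ on the gene's strand, from RefSeq on build GRCm38.p6. Alb lies at chr5:90460620-90460919 (plus strand), Apoa1 at chr9:46228380-46228679 (plus strand) and Fabp1 at chr6:71199629-71199928 (plus strand). Capitals mark the letters of a TATA box (TATAAA), a motif known from liver promoters (GTTAAT), a site of HNF4 (CAAAGTCCA), a CCAAT box (CCAAT) and the cell cycle element CHR (TTTGAA), searched on both strands.
Alb: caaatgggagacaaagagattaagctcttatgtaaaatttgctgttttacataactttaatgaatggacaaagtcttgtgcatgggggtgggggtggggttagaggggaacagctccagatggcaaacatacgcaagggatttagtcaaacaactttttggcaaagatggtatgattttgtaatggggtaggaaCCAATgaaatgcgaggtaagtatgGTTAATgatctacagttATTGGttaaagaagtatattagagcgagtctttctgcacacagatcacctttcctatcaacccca
Apoa1: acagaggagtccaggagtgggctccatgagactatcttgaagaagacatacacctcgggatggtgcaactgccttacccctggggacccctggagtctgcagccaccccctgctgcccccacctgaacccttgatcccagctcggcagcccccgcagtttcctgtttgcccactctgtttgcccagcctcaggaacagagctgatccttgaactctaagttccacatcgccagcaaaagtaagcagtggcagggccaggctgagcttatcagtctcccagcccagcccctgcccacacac
Fabp1: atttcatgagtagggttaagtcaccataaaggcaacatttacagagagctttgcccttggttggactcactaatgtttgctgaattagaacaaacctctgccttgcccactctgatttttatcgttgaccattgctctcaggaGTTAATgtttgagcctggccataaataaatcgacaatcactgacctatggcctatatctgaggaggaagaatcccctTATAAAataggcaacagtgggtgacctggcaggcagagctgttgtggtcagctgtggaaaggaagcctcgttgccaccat
The Alb window holds GTTAAT with its first base 32 bases before the start, a CCAAT box 56 bases before it, and a CCAAT box on the other strand. The Fabp1 window holds TATAAA 30 bases before the start and GTTAAT further upstream. None of the 5 motifs is in the Apoa1 window, and none of those found overlaps another in these windows.

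GTTAAT was present in 7.1% of all 32851 promoter windows, in 5.18% of the 12998 windows of genes tested, in 8.86% of the 1479 windows of genes higher in liver and in 3.41% of the 1468 windows of genes lower in liver. Of the 61 windows of the plasma protein, coagulation and complement genes described next, 31.15% held it. CAAAGTCCA was in 1.56% of the windows of genes higher in liver, 0.34% of those lower in liver, 0.49% of those tested and 0.47% of all windows. Of the same 61 windows of plasma protein, coagulation and complement genes, 0% held CAAAGTCCA. TATAAA was in 12.44% of the windows of genes higher in liver, 9.6% of those lower in liver, 9.02% of those tested and 13.62% of all. These shares are descriptions of letters in a window, with no test, and show no binding.

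Secreted proteins of plasma were nearly all higher in liver. Counts of list members, here and below, stand beside 8.93% of all features called higher and 9.39% called lower. Of 27 carriers and inhibitors of plasma that were tested (29 were listed), 26 were higher in liver and none lower, with a median ratio of 6.45, beside a median of -0.05 over all features. Gc, the vitamin D binding protein, stood at 8.25 ± 0.39 (SD, n = 9). The iron carrier transferrin (Trf) stood at 7.55 ± 0.63, and Orm1, an acute phase glycoprotein, in the middle of the list at 6.45 ± 0.34. Serpina7, the thyroxine-binding globulin, was not called, at 0.99 ± 0.70. Its reference channel was not well above background on any array.

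All 18 tested genes of apolipoproteins and lipoprotein handling were higher in liver, with a median of 6.06. Apoc1, an apolipoprotein of very-low-density lipoprotein, had the largest ratio at 8.56 ± 0.34, with 8.13, 8.48 and 9.22 at the lowest, median and highest array. Apob, the core protein of that particle, stood at 6.26 ± 0.39. The smallest ratios belonged to Mttp (microsomal triglyceride transfer, 1.69), Lipc (hepatic lipase, 1.44) and Scarb1 (the HDL receptor, 1.31 ± 0.28, adjusted p 0.013). With no normalisation, 13 of the 18 were called.

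Of 22 coagulation and fibrinolysis genes, 21 were higher in liver, with a median of 5.81. The fibrinogen chains Fgg (9.52), Fgb (7.24) and Fga (5.72) and prothrombin, F2 (7.54 ± 0.52), were among them. F13b, the carrier subunit of factor XIII, was not well above background in the reference on any array. Its mean ratio was 5.92, with an adjusted p of 1.8e-12 in the treat test. F13b passed the filter on dim signals through the liver channel alone, so that p-value is no independent support. It was at least 57.0-fold higher in liver under the normalisation used here. This lower bound is the mean liver level over a floor, and is open to dye bias. The floor is the higher of the gene's own reference signal and the lowest reference signal called above background on each array. The other bounds given below likewise hold under this normalisation alone. Across the alternatives run, the mean ratio of F13b was 4.94 at the lowest. F8, coagulation factor VIII, which is made by endothelial cells, was the exception at 0.52 ± 0.27 and was not called.

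Complement genes were higher in liver in 20 of 21 tested cases, with a median of 5.20. Cfi, the protease that cuts C3b and C4b, stood at 8.96 ± 0.35, Hc (complement C5) at 7.66 ± 0.56, and C3, the central component, at 5.71 ± 0.19. Serping1, the C1 inhibitor, lay in the middle of the list at 5.20 ± 0.66, with 3.96 as its lowest array. C6, a part of the membrane attack complex, was not called at 1.02 ± 0.38. Cfp (properdin, a product of myeloid cells) had the smallest ratio of those called, 1.66.

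Nitrogen metabolism showed the same picture. All 6 tested urea cycle genes were higher in liver, with a median of 4.35, led by Otc (ornithine transcarbamylase) at 6.63 ± 0.71 and Arg1 (arginase, which releases urea) at 6.43 ± 0.50. Asl, argininosuccinate lyase, had the smallest ratio, 2.97 ± 0.93. It lay at 1.38 and 1.39 on both arrays of scan day 1, against 2.97 to 3.66 on the other 7. All 26 tested genes of amino acid catabolism were higher too, with a median of 5.53. Tat, tyrosine aminotransferase, stood at 6.25 ± 0.57, and Kmo, an enzyme of tryptophan breakdown, was last at 2.17 ± 0.64.

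Enzymes that make amino acids ran the other way. Phgdh, the first enzyme of serine synthesis, was among the genes with the most negative ratios, at -6.14, -5.68 and -4.34 on the lowest, median and highest array (mean -5.48 ± 0.62, SD, n = 9). Its other probes gave -3.57 and -3.04. Asns, asparagine synthetase, had a mean of -5.09 ± 0.54. Bcat1, the cytosolic branched-chain transaminase of tissues other than liver, was not well above background in liver on any array and was at least 5.54-fold lower there, although another probe of it gave -0.09.

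All 14 tested genes of gluconeogenesis, glycogen and fructose use were higher in liver, with a median of 3.71. Fbp1, fructose bisphosphatase of gluconeogenesis, had the largest ratio at 8.37 ± 0.35. Its liver levels were close together, at 16.75 to 16.89 on the log2 intensity scale, against a lowest level of 7.89 and a median of 8.53 in the reference. The liver channel thus spread less over the arrays than the ratio did. G6pc, the enzyme that releases free glucose, stood at 5.33.

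Where liver uses its own isozyme of a step that other tissues carry out with a different one, in each pair given here the liver form was higher and the other form lower or not called. Hk2, the hexokinase of muscle and many cultured cells, was -2.43 ± 0.25, and Aldoa, the aldolase of muscle, -3.49 ± 0.69. For the glucose transporters, Slc2a2 (GLUT2) was at least 51.1-fold higher in liver, its reference channel not being well above background on any array, although another probe of it gave only 2.30, and Slc2a1 (GLUT1) was -3.74 ± 0.31. The 9 arrays of Slc2a2 lay above 0 and those of Hk2, Aldoa and Slc2a1 below it.

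Liver pyruvate kinase (Pklr) had one of the smaller ratios of a liver form, 1.63 ± 0.57 (adjusted p 0.0067), against -3.24 ± 0.35 for Pkm, the form of muscle and dividing cells. Glycogen synthase 2 (Gys2) stood at 6.19 ± 0.31 and Gys1 at -1.27 ± 0.28. The call of Gys1 (adjusted p 0.028) was lost without control day 1 replicate 2 or 3 or control day 28 replicate 2 or 3, with adjusted p of 0.0559 to 0.0755. Liver glycogen phosphorylase (Pygl) was 6.22 ± 0.53, while the brain form Pygb, at -0.87 ± 0.23, was not called. Mat1a, which makes S-adenosylmethionine in adult liver, was 7.33 ± 0.47, while Mat2a, its form in other tissues, at -1.24 ± 0.41 did not pass the test (adjusted p 0.16). Cpt1a, the liver gate of fatty acid entry into mitochondria, was 2.87 ± 0.20, with 1.01 at its other probe, and the muscle form Cpt1b was not called at 0.17 ± 0.30. Of the 12 tested isozymes of other tissues, 8 were lower in liver and none higher, with a median of -1.84. Fbp2 and Arg2 did not pass the filter on dim signals, so these pairs give no comparison.

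**Figure D3:**
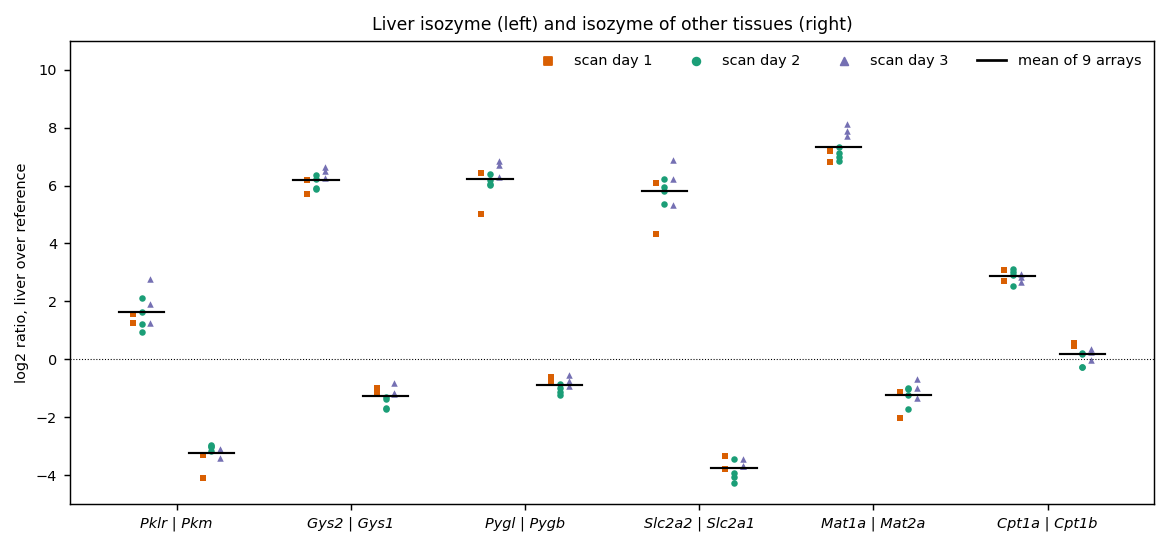
Log2 ratio of liver over reference on each of the 9 control arrays for 6 pairs of isozymes, with the form of liver on the left and that of other tissues on the right of each pair; symbols mark scan days and bars the means. The liver forms lie between 0.93 and 8.12, and the other forms below 0 except for Cpt1b at 0.17.

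Genes of fatty acid oxidation and ketogenesis were higher in liver in 17 of 18 cases, with a median of 2.83, smaller than those of the secretory lists. Cpt1a, given above, was among them, and Hadha, the trifunctional protein's alpha subunit, was not called at 0.99 ± 0.30. This count depends on the scaling: 9 of 18 were called with median centring alone and 7 with no normalisation. Oxidative phosphorylation, which nearly all cells use, differed less. Of its 27 tested genes, 24 were not called and 3 were higher in liver, beside 8.93% of all features. Those 3 were Sdha (2.50), Uqcrfs1 (1.45) and Sdhb (1.30). The median of the 27 was 0.63. With no normalisation that median was -0.12, which was 0.38 above the median of all features under that scaling, and no member was called. By the scanner software's ratios 11 were called higher.

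Bile acid genes were higher in liver in 14 of 17 cases, with a median of 4.34. Abcb11, the pump that moves bile salts into bile, stood at 6.86 ± 1.23, and Cyp7a1, which carries out the first step from cholesterol to bile acids, at 4.76 ± 1.05, ranging from 2.57 to 6.24. Akr1d1, a steroid reductase of the pathway, was not called at 0.84 ± 0.23. Of 30 cytochrome P450 genes (Por, their electron donor, included), 28 were higher, with a median of 5.95. Por (1.06) and Cyp4a12a (0.21) were not called.

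Conjugating enzymes and esterases were higher in 22 of 23 cases, with a median of 4.73. Ces1c, a carboxylesterase secreted into plasma, led with 8.13 ± 0.56. Ugt2b1, a glucuronosyltransferase, was at least 25.5-fold higher in liver, against a reference channel that was not well above background on any array. The succinate receptor Sucnr1 (at least 42.1-fold), the acyl-CoA thioesterase Acot12 (at least 31.9-fold) and Etnppl (at least 28.7-fold), a lyase of phosphoethanolamine, were other genes of this kind. Gstp1, a glutathione transferase of many cell types, was the one not called, at -0.26 ± 0.17.

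The transcription factors that define hepatocytes were higher in liver in 15 of 18 cases, with a median of 3.83. Foxa2, a forkhead factor that opens chromatin at liver genes, stood at 5.00 ± 0.38. Creb3l3, a membrane-bound factor of the fasting liver, lay in the middle at 3.98 ± 0.60. Hnf4a, the nuclear receptor that many liver genes depend on, was 4.08 ± 0.38, with the reference above background on 1 of 9 arrays and 1.21 and 1.87 at its other probes. Cebpb (0.17 ± 0.82), Foxa1 (0.27) and Prox1 (0.46) were not called. The Cebpb arrays ran from -1.38 to 1.16, on both sides of 0.

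Of 22 hormones, receptors and growth factor genes, 15 were higher in liver, beside 8.93% of all features, with a median of 3.04. Igfbp1, a binding protein of insulin-like growth factors that insulin represses, led at 7.70 ± 0.71, and Gcgr, the glucagon receptor, followed at 7.40. Igf1, the growth factor that liver supplies to the blood, was 5.51 ± 0.23, and Igf1r, its receptor, was the one gene of the list that was lower in liver, at -1.74 ± 0.46 (adjusted p 5e-04). The other probes of Igf1r gave -1.11 and -0.48. Ghr, the growth hormone receptor, stood at 3.04 ± 0.23.

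Zonation and sex marks of hepatocytes were all on the liver side or not called. All 11 tested pericentral genes were higher in liver (median 3.96), among them Glul, glutamine synthetase of the last rim of cells around the central vein, at 5.31 ± 0.24 and Cyp2e1 at 6.79 ± 0.43. All 11 periportal genes were higher as well (median 4.96), among them Cyp2f2 at 6.29 ± 0.70. Of 10 female-biased genes, 9 were higher, with a median of 6.47. Of 12 male-biased genes 6 were higher, beside 8.93% of all features, with a median of 1.82, and Cyp4a12a was not called at 0.21 ± 0.12. By the scanner software's ratios, 10 of these 12 were called.

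**Figure D4:**
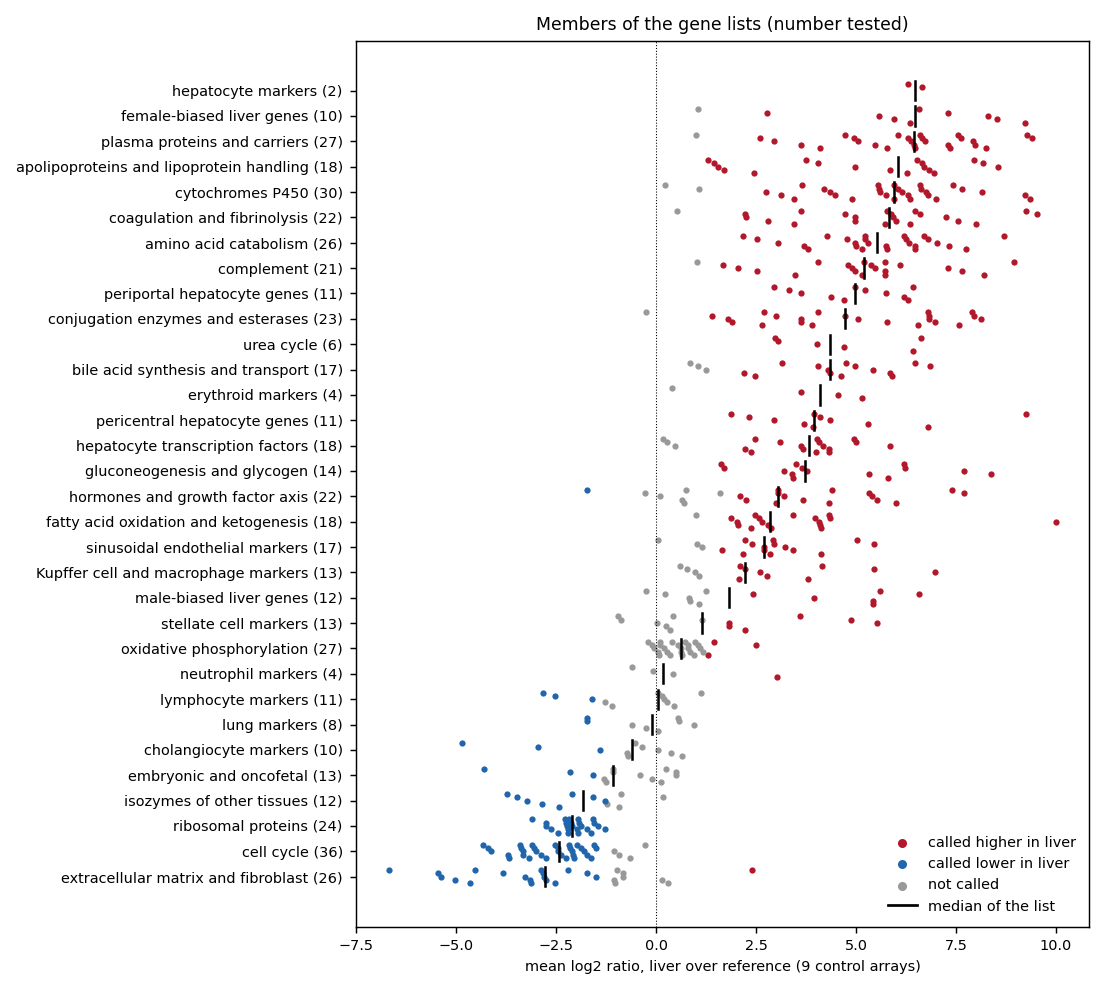
Mean log2 ratio over 9 control arrays of each tested member of 32 gene lists, ordered by the median of the list (black bar), with the number tested in parentheses; red points were called higher in liver, blue points lower, and grey points were not called. Lists of hepatocyte genes other than the male-biased ones lie at medians of 2.83 to 6.47, and ribosomal, cell cycle and matrix genes at -2.11 to -2.78.

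On the other side, S100a4 and S100a6 had the most negative ratios of all named genes. Both encode small calcium-binding proteins known from motile and mesenchymal cells. S100a4 (chromosome 3, probe A_51_P105078) had ratios of -8.19, -7.45 and -6.70 at the lowest, median and highest array, a mean of -7.44 ± 0.54 (SD, n = 9), or 173-fold lower in liver. Its level was 8.94 to 10.30 in the liver channel, against 16.83 to 17.37 in the reference. S100a6 had a mean of -6.69 ± 0.59. No array of either gene came near 0.

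Genes of fibroblasts and other mesenchymal cells filled much of that end. Of 26 tested matrix and fibroblast genes, 18 were lower in liver, 1 was higher and 7 were not called, with a median of -2.78. Lgals1 (galectin 1) was -5.46 ± 0.37 and Vim (vimentin, the intermediate filament of mesenchymal cells) -5.37 ± 0.54. Collagen I, the main fibre of connective tissue, was lower in both chains, Col1a1 at -5.04 ± 0.40 and Col1a2 at -4.67 ± 0.26, although further probes of Col1a1 gave only -2.19 and -0.65. The one matrix gene higher in liver was Lum, the proteoglycan lumican, at 2.40 ± 0.27. That call was lost with median centring alone and with no normalisation. Fn1 (0.28), fibronectin, which hepatocytes secrete into plasma, was not called.

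Other genes of this end were of mixed function. Il1rl1, the receptor of interleukin 33, was -5.18 ± 0.54, with -3.06 and -0.82 at its other probes. Scd2, a fatty acid desaturase of non-hepatic tissues, was -5.01 ± 0.62, Spp1, the secreted phosphoprotein osteopontin, -4.86 ± 0.51, and Anxa1, annexin A1, -4.76 ± 0.43. Ifi202b, an interferon-inducible gene, was at least 22.0-fold lower in liver, and Mmp3, a matrix metalloproteinase, at least 8.0-fold lower. The liver channel was not well above background on any array for 40 of the 1475 named genes called lower, and the reference channel for 52 of the 1448 called higher.

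Cell cycle genes were lower in liver in 32 of 36 cases, and none was higher, with a median of -2.42. Cdc20, the activator of the anaphase-promoting complex, had the most negative ratio, with -4.89, -4.54 and -3.71 at the lowest, median and highest array (mean -4.34 ± 0.45, SD, n = 9). Mcm6, a subunit of the replication helicase, was -4.22 ± 0.40. The mitotic cyclin Ccnb1 was -3.06 ± 0.62, with the liver channel above background on 2 of 9 arrays. Bub1, a kinase of the spindle checkpoint, was not above background in liver on any array and was at least 6.75-fold lower there.

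Pcna, the clamp of replication, was -2.16 ± 0.17. Ccnd1, a cyclin of the G1 phase that is also made in resting hepatocytes, was not called, at -0.29 ± 0.41 with arrays on both sides of 0. Hmmr, Tk1 and Kif11 were not called either, at -0.66 to -1.05. Across the scalings run, 33 or 34 of the 36 were lower with median centring, no normalisation and the scanner software's ratios.

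The promoters of Cdc20, at chr4:118437294-118437593 (minus strand), and Ccnb1, at chr13:100786437-100786736 (minus strand), are shown because cell cycle genes are known to be regulated through CCAAT boxes and the CHR. Capitals mark the same 5 motifs as above (RefSeq, GRCm38.p6).
Cdc20: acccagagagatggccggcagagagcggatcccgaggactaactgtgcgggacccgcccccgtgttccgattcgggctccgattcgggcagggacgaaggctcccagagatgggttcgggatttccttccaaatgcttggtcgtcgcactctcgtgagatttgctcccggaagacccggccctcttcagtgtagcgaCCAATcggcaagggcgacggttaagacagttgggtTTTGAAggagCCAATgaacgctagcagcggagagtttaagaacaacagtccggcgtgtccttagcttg
Ccnb1: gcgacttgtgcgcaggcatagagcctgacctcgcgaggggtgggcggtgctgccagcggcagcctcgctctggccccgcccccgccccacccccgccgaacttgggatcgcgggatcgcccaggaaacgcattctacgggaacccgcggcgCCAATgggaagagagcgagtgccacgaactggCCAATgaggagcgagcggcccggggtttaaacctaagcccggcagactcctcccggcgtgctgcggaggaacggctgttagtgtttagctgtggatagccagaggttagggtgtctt
The Cdc20 window holds CCAAT at 53 and 8 bases before the start and TTTGAA at 18 bases before it. The Ccnb1 window holds CCAAT at 99 and 67 bases before the start, and no TTTGAA. Of the 31 windows of tested cell cycle genes, 74.19% held CCAAT and 45.16% TTTGAA, beside 37.41% and 17.89% of all windows, 37.67% and 12.76% of the windows of genes tested, and 38.49% and 13.42% of the windows of genes lower in liver. In the windows of genes higher in liver the shares of CCAAT and TTTGAA were 42.06% and 13.73%. None of the 31 held TATAAA. These are again shares of letters with no test.

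Ribosomal protein genes, whose products every growing cell needs in bulk, were lower in liver in 24 of 24 cases, with a median of -2.11. Rpl3 had the most negative ratio at -3.10 ± 0.56, Rps23 lay in the middle at -2.10 ± 0.49 (n = 8, with 1 array lacking a value), and Rpl11 was the least negative at -1.27 ± 0.30 (adjusted p 0.034). The call of Rpl11 was lost in 17 alternatives, among them leaving out control day 1 replicate 2, 3, 4 or 5 or control day 28 replicate 2 or 3, with adjusted p of 0.0542 to 0.0944 in these 6. By the authors' deposited ratios 18 of the 24 were called. Their signals were high in both channels, 14.86 to 15.65 for Rpl11 in liver and 16.14 to 16.68 in the reference. By the scanner software's own ratios 16 of the 24 were called lower, with a median of -1.46. Ribosomal protein genes have many near-identical pseudogenes, whose transcripts such probes may also bind.

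Genes of embryonic and fetal cells were mostly dim on these arrays. Of the 19 genes of this list with a named probe, 13 passed the filter on dim signals, with a median of -1.09. Of these 13, 3 were lower in liver, beside 9.39% of all features. With each of the scalings without loess, 7 were called lower. Hmga1, a chromatin protein of undifferentiated and dividing cells, was -4.31 ± 0.21, Igf2bp2 -2.16 and Igf2 -1.58. Afp, the albumin of the fetal liver, was not called at -1.09 ± 0.24, with liver above background on all 9 arrays. Nanog, Sox2 and Lin28a were not above background in liver on any array, and in the reference on at most 1, 1 and 0 of 9 arrays.

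Markers of the other cells of the liver differed by cell type in how many were called. The counts called higher, here and in the next paragraph, stand beside 8.93% of all features. Of 13 tested markers of Kupffer cells and macrophages, 9 were higher, with a median of 2.21. Cd5l, a secreted protein of Kupffer cells, was 6.98 ± 0.36, and Clec4f, a lectin found on mouse Kupffer cells, 5.45. Csf1r, the receptor of the macrophage growth factor, was not called at 0.60 ± 0.20, which shows a signal of both RNAs at a marker of the same lineage.

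Sinusoidal endothelial markers were higher in 14 of 17 cases, with a median of 2.68. Stab2, the scavenger receptor of these cells, had one of the tightest ratios here, 2.68 ± 0.13, and Clec4g was 5.02. Pecam1, a marker of all endothelium, was not called at 0.04 ± 0.10. It was dim in both channels, above background on 4 of 9 arrays in liver and 6 in the reference, so this ratio says little. Of 13 stellate cell markers 6 were higher, led by the collectins Colec10 (5.51 ± 0.28) and Colec11 (4.88). The muscle filament gene Des was not called at -0.95 ± 0.29, with liver above background on 4 of 9 arrays. With no normalisation 3 of these 13 were called higher and 1 lower.

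Bile duct, lymphocyte and lung markers did not follow. The counts of this paragraph stand beside 9.39% of all features called lower and 8.93% called higher. Of 10 cholangiocyte markers none was higher and 3 were lower: Spp1 (-4.86), Krt19 (-2.97 ± 0.59) and Epcam (-1.42 ± 0.53, adjusted p 0.048). Without control day 1 replicate 2, 3 or 4 or control day 28 replicate 2 or 3, 2 of the 10 were lower. Of 11 lymphocyte markers none was higher and 3 were lower, with a median of 0.04 that turned below 0 in 5 of the alternatives run. By the scalings without loess, 5 were lower. The middle marker, Cd79a, was dim, with liver above background on 4 and reference on 6 of 9 arrays. Cd79b, a part of the B cell receptor, was -2.84 ± 0.30. The erythroid markers Hba-a1 (5.15 ± 0.59) and Hbb-bt (4.56 ± 0.31), both haemoglobin chains, and Alas2 (3.63) were higher in liver, and Slc4a1, the anion exchanger of red cells, was not called at 0.38. Of 10 neutrophil markers 4 could be tested, and S100a9, a calcium-binding protein of myeloid cells, was the one higher in liver at 3.02 ± 0.67. Its reference channel was above background on 4 of 9 arrays. The others tested were not called, among them S100a8 (-0.60 ± 0.27, liver above background on 4 of 9 arrays) and Csf3r (0.42 ± 0.16).

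Since the labels give liver as the source but speak of lungs where RNA extraction is described, lung markers were looked at by themselves. Of 13 listed, 8 passed the filter on dim signals. Of these 8, 2 were lower in liver (Napsa -1.74 ± 0.44 and Aqp5 -1.73), beside 9.39% of all features, and none was higher. Their median was -0.10 and turned above 0 in 1 alternative. The surfactant genes Sftpc and Sftpb, which define alveolar type 2 cells, were above background in liver on 1 of 9 arrays each, and Sftpa1 on 2. The summed level of the tested lung markers was 9.65 to 10.15 in liver and 10.26 to 10.52 in the reference, as log2 intensity. Sftpd was above background in liver on all 9 arrays, at 0.93 ± 0.35, and is also made outside the lung.

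The leading difference among the 9 livers followed the day on which the array was scanned. The first principal component of the ratios held 44.77% of the variance, of which scan day accounted for 96.58% and the day after instillation for 0.03%. Each scan day holds control arrays of both times: 2 arrays on scan day 1, 4 on scan day 2 and 3 on scan day 3. Within every scan day the mean was beyond 2-fold in the called direction for 1728 of the 1854 features called higher and for 1805 of the 1950 called lower, a description of features chosen on these same arrays. With scan day as a block, 1941 features were called higher and 2048 lower.

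The size of the ratios did move with scan day. Features called higher had a median of 2.25 on scan day 1, 2.56 on scan day 2 and 2.47 on scan day 3. For those called lower the medians were -1.65, -2.03 and -1.70 in the same order. Of the 1839 features called higher with a value on all arrays, both arrays of scan day 1 lay below all others in 576 and above all others in 146. What made the scan days differ was not tested.

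Livers at day 28 and at day 1 did not differ detectably. No feature of 20761 was called between the 4 livers of day 28 and the 5 of day 1 (0%) by limma's moderated test, the smallest adjusted p being 1, and 333 had an unadjusted p under 0.05, where chance gives about 1038. With scan day as a block 1234 had an unadjusted p under 0.05, and 1025 with slide as a random block, again with no call. Alb averaged 6.26 at day 28 and 6.34 at day 1. Leaving out control day 1 replicate 2 gave 1 call.

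Of the genes called higher in liver with a value on all 9 arrays, the 6 with the largest SD are described next. Sult2a8, a sulfotransferase of bile acids in mouse liver, had the largest, with a mean of 6.25 ± 1.89 (n = 9). It lay at 6.60 to 7.15 on 8 arrays and at 1.22 on control day 28 replicate 1, and at 6.30 to 7.05 in the 12 TiO2 livers. Ces2a, a carboxylesterase of the endoplasmic reticulum, was lowest on the same array, at 0.43, against 3.05 to 5.32 on the others. The other array of that scan day, control day 1 replicate 1, had 6.93 for Sult2a8 and the highest Ces2a value.

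Slc26a1, a sulfate transporter (4.89 ± 1.44), Mup3, a major urinary protein (6.57 ± 1.24), and Abcb11 (6.86 ± 1.23) were low on both arrays of scan day 1. Their means were 2.42, 4.52 and 4.77 there, against 5.67, 6.96 and 7.36 on scan day 2. Hao2, a hydroxyacid oxidase, spread from 0.76 to 4.65 and did not follow scan day, with 4.65 and 1.72 on the arrays of scan day 1. Its reference channel was not above background on any array.

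**Figure D5:**
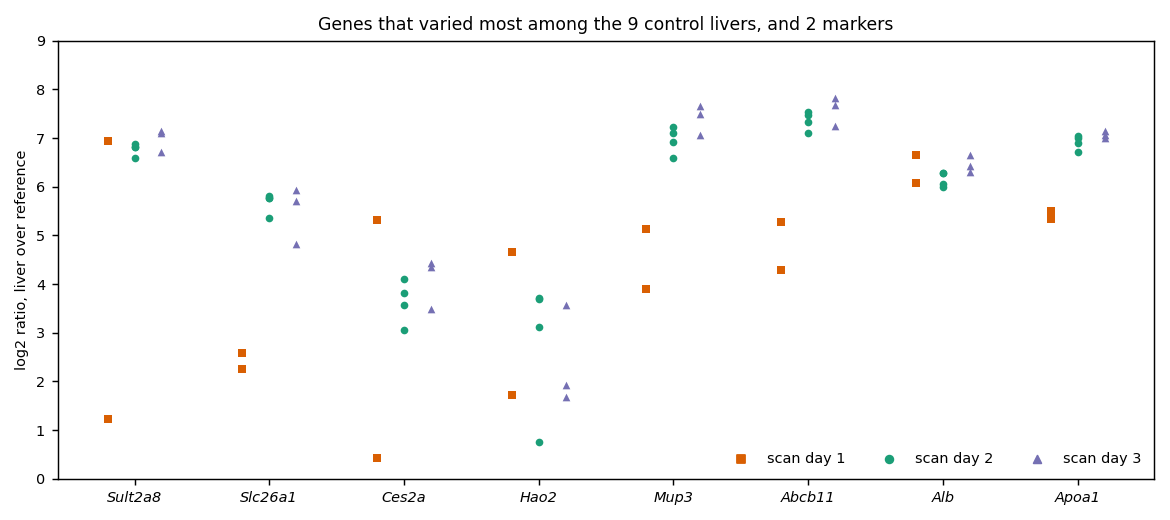
Log2 ratio of liver over reference on each of the 9 control arrays for the 6 genes called higher in liver with the largest SD, and for the markers Alb and Apoa1; symbols mark the 3 scan days. Slc26a1, Mup3, Abcb11 and Apoa1 lie lower on both arrays of scan day 1, Sult2a8 lies low on 1 of them, and Alb lies within 6.00 to 6.66 throughout.

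Where a gene had several probes, they did not always tell the same story. Of the 993 called genes with more than 1 probe, 79 had another probe whose mean had the opposite sign. Other probes, here and above, were taken whether or not they passed the filter on dim signals. Called genes varied more between arrays than others: the median SD over the 9 arrays was 0.38 for features called higher, 0.31 for those called lower and 0.23 for all.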

How the data were processed

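The files are scanner output of 2-colour Agilent arrays. The spot intensity values deposited by the authors are median pixel brightness with local background, not normalised, per the file headers, and the scanner software's ratio is log10 of red over green per the file headers. The authors' deposited table of processed values holds log2 ratios whose scale and direction were taken from a match to the arrays, with correlations on the control arrays of 0.9965 to 0.9974 to ratios without background correction and 0.9939 to 0.9958 to the ratios reported. The file headers name Feature Extraction 10.7.3.1, and the submitters' processing notes name 9.5.3.1. The sources used here do not state how the authors made that table.

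In limma 3.58.1 under R 4.3.3, background was corrected by normexp with an offset of 50 on median signals, because mean signals were not among the columns used here. Spots that the scanner software marked as deviant were given the array's median background. Loess followed array by array, control spots having weight 0, outlier-marked spots were left out, and spots of a probe were averaged. Probes were kept where either channel was well above background on at least 5 of 9 control arrays (25552 probes). Genes were named through RefSeq accessions (assembly GRCm38.p6): 23374 probes had 1 symbol and 17800 none. For a gene with several probes, the one brightest on average over both channels was taken. A gene that passed through 1 channel alone tends to differ by that filter. Of 20761 features, 135 lacked a value on at least 1 array, and fits used the values present. The test was limma's treat at 2-fold, and limma's empirical Bayes test for the times, each with Benjamini-Hochberg adjustment over all features. The treat test was also run on simulated data, which took the SDs of these features and held no scan day effect. Errors are SD over arrays, and per the labels the samples are biological replicates, with 1 animal an array. Their number limits the precision.

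The design text speaks of 22 arrays, and 21 were used. The members and gene lists were chosen with earlier results of these data known. Genes named were the markers, the 12 largest and 12 most negative means, the 8 largest bounds each way, the highest, middle and lowest member of each list, any member called against its list, the isozyme pairs and the 6 largest SDs; other members named were chosen after their values were seen, and some genes of this rule are not reported here. Alternatives are given in the closing section.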

Additional observations from a re-analysis of the deposited data

Results flagged for a closer look

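In 10 of 138 named genes, 1 of the 9 control arrays stood apart from the others by a gap that a test for single outlying values (Dixon's, at 95%) marks, which by chance happens in about 1 of 20 genes. On control day 28 replicate 1, Sult2a8 had a log2 ratio of 1.22 with the next array at 6.60, Ces2a had 0.43 with the next at 3.05, and Pkm had -4.10 with the next at -3.41. On control day 1 replicate 1, Pygl was low at 5.00 with the next at 6.01, Hadha was high at 1.60 with the next at 1.14, and Anxa4, annexin A4, was high at 0.092 with the next at -0.40. Both of those arrays were scanned on scan day 1. Serpina7 was high at 2.62 on control day 1 replicate 2 (next 1.39). Pou5f1, a pluripotency factor, was high at 2.31 on control day 1 replicate 5 (next 1.11), and Colec10 was low at 4.85 on control day 28 replicate 3 (next 5.43). Sftpd was high at 1.76 on control day 28 replicate 2 (next 1.11). What set these arrays apart at these genes was not tested.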

How the results depend on the processing

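No paired analysis was possible because the replicate numbers are only names and pair no samples; liver and reference are paired within each array. Counts of features higher and lower in liver were 1854 and 1950. They changed by more than 1.5 times with median centring and no loess (922 and 3090, 22.98% of calls higher), no normalisation within arrays (751 and 2990, 20.07% higher), the scanner software's ratios (3082 and 4816, 39.02% higher), a minimum fold of 4 (937 and 497, 65.34% higher) and a test against a ratio of 1 (6843 and 8566, 44.41% higher). The minimum fold moves the count by construction, and for the scalings the cause was not tested. The median over all features was -0.05 in the values reported, -0.36 with median centring, -0.50 with no normalisation and -0.27 with the scanner software's ratios. Leaving out 1 array at a time gave 1797 to 1913 higher and 1850 to 2046 lower, and 0 to 1 calls between day 28 and day 1, the 1 call arising without control day 1 replicate 2. Without scan day 2 the counts were 1575 and 1484, 1941 and 2048 with a block for scan day, and 1737 and 2085 by the authors' deposited ratios. No called feature took the opposite call under any of the 30 alternatives, and of the 138 named genes none turned its direction while called. Alternatives that keep the same ratios, such as the minimum fold of 4 and the test against a ratio of 1, could not turn a call. With no normalisation 15 of the 138 lost their call and 3 gained one, and a minimum fold of 4 cost 18 their call. Genes dim in both channels limit the precision: 34335 features could be tested with no filter on dim probes, and 1823 and 1906 were then called.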
